A study of Homo sapiens with 4 samples.

Results

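The collagen genes of BEAS-2B cells were compared between cells exposed to formaldehyde and untreated cells. A gene was taken as a member if its name in the files consisted of COL, a number, A and a number, and nothing more, which gave 44 of 23004 gene names. BEAS-2B is an immortalized cell line from human bronchial epithelium. The 4 RNA-seq libraries were 2 of cells that received 100 µM formaldehyde for 48 h and 2 of untreated cells of the same line. Dose and duration come from the protocol label, and the name of the compound, a reactive small aldehyde, comes from the title of the series. Whether the replicates are separate cultures is not stated in the labels, so p-values reflect only the spread among these libraries, which may be technical.

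Collagens are extracellular matrix proteins in which 3 chains wind around each other in a helix built of repeats that begin with glycine. Fibrillar collagens form the banded fibrils of connective tissue. Type IV collagens form the mesh of basement membranes, on which the bronchial epithelium rests, and FACIT collagens, which have interruptions in the helix, sit on the surface of fibrils. Other members form beaded filaments (type VI), the anchoring fibrils that tie basement membrane to the stroma (type VII), short-chain networks (types VIII and X), or carry a membrane-spanning segment. Each chain is made in the endoplasmic reticulum, where prolines and lysines are hydroxylated, and is secreted as a procollagen that is then cut and crosslinked.

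The type IV genes lie in pairs that start next to each other and run apart. In the RefSeq table of starts (GRCh38.p14), 126 bases separate the starts of COL4A1 and COL4A2, 379 those of COL4A6 and COL4A5, and 418 those of COL4A4 and COL4A3. The stretch between COL4A1 and COL4A2 is shown because both genes are set side by side below. The same length before the starts of COL4A5 and of COL12A1, the member with the smallest p, is given beside it. Each is written on the strand of its gene from 5′ to 3′, in lower case, with matches to CCAAT or GGGCGG in capitals.
COL4A2, chr13:110307158-110307283, plus strand: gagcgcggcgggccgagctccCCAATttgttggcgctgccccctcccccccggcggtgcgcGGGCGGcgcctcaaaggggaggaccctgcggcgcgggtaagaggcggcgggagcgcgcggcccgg
COL4A5, chrX:108439712-108439837, plus strand: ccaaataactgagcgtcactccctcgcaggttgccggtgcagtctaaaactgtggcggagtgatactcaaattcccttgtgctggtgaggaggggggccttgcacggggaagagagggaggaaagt
COL12A1, chr6:75206054-75206179, minus strand: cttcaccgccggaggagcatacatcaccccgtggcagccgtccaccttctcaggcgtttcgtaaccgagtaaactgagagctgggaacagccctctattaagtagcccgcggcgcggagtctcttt
The stretch between COL4A1 and COL4A2 held 80.2% G and C, against 56.3% before COL4A5 and 58.7% before COL12A1. It held 1 CCAAT, which began 105 bases before the start of COL4A2, and 1 GGGCGG, which began 65 bases before it. The windows of COL4A5 and COL12A1 held neither of these, nor TATAAA, on either strand. The motifs share no letters by overlap in the COL4A2 window. Among all 35116 windows of 126 bases in the table, 21.1% held CCAAT, 34.6% GGGCGG and 5.87% TATAAA, and among the 44 windows of the 32 collagen genes matched by symbol 8, 19 and 5 did. These matches are a description of the letters.

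The level of a gene was the sum of the deposited FPKM of its transcripts, a unit that divides fragments by transcript length and by library depth. Formaldehyde replicates 1 and 2 held 14.2 and 22.2 M mapped fragments (M, mega), and untreated replicates 1 and 2 held 16.8 and 26.5 M, as worked out from the deposited values. Members with a mean of at least 1 FPKM over the 4 libraries were called expressed and tested, and those below 0.1 FPKM silent. By this rule 16 members were expressed, 10 lay at 0.1 to 1 FPKM and 18 were silent. On either side of the limit for testing stood COL9A3, with a mean of 1.25 FPKM, and COL8A2, with 0.939 FPKM.

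**Figure D1:**
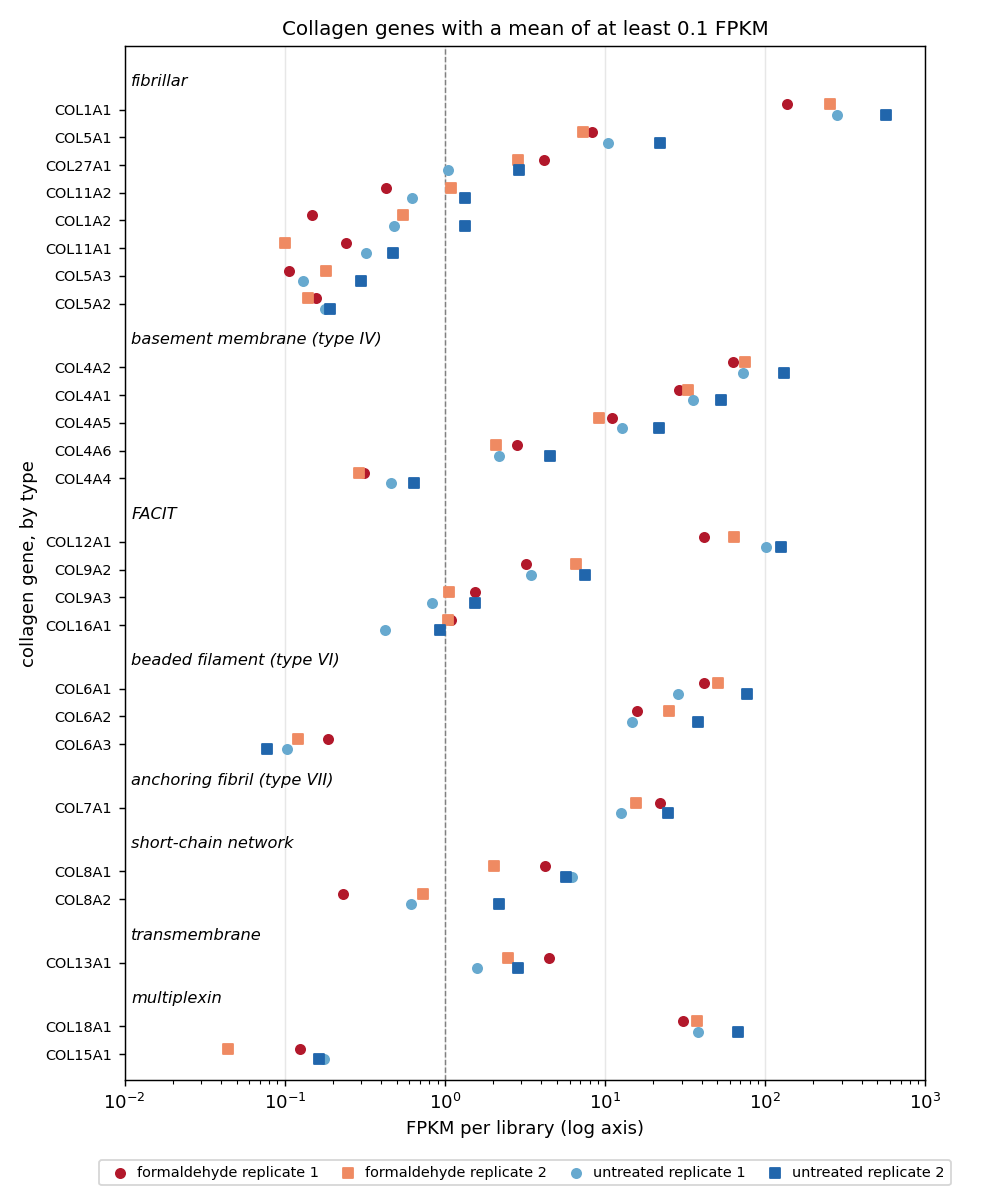
FPKM (log axis) of the 26 collagen genes with a mean of at least 0.1 FPKM, grouped by type, with a point for each library and formaldehyde drawn above untreated. The dashed line marks 1 FPKM; the genes span from below 0.1 FPKM to 568 FPKM for COL1A1 in untreated replicate 2.

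Collagen transcripts were lower in sum in both formaldehyde libraries. The 44 members summed to 424 and 591 FPKM with formaldehyde, against 623 and 1160 FPKM untreated, a mean of 508 ± 118 FPKM with formaldehyde and 891 ± 380 FPKM untreated (SD, n = 2 each), or 0.570 times. The groups did not overlap, yet the smallest p that an exact permutation test of 2 libraries against 2 can give is 0.3333, which is the p found (two-sided). The untreated libraries also differed from each other by more than the nearer libraries of the 2 groups did. COL1A1 made up 32.4% and 43.0% of the sum with formaldehyde and 44.7% and 49.0% of it untreated. Without COL1A1 the sums were 287 and 337 FPKM with formaldehyde, against 344 and 592 FPKM untreated.

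No collagen gene passed the test. The fit of limma on log2(FPKM + 1) over 12407 genes, with Benjamini-Hochberg adjustment, called 0 of the 16 expressed members, and 0.153% of all genes tested (0.0806% higher and 0.0725% lower with formaldehyde). When only genes of at least 300 nt were fitted, which include all 16 members, limma called 1 of 12015. With so few calls among all genes, 0 of 16 says little about the members. At an unadjusted p under 0.05 there was 1 of 16, COL12A1, against 2.76% of all genes tested. This count changed with the setting. It was 4 of 16 when only genes of at least 300 nt were fitted (3.35% of the genes in that fit), and other settings are given at the end. In 7 of 16 members the formaldehyde values were both lower than the untreated values (10.7% of all genes tested), and in 0 of 16 both were higher (16.2%). The log2 fold change was below 0 in 12 of 16 members (44.9%). The median log2 fold change of the 16 was -0.38, and that of all genes tested 0.03; without untreated replicate 2 the collagen median was 0.02 and 8 of 16 lay below 0. On this scale the fold of a gene of low level is understated. In bulk RNA, fewer cells that make a transcript and less of it per cell cannot be told apart.

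**Figure D2:**
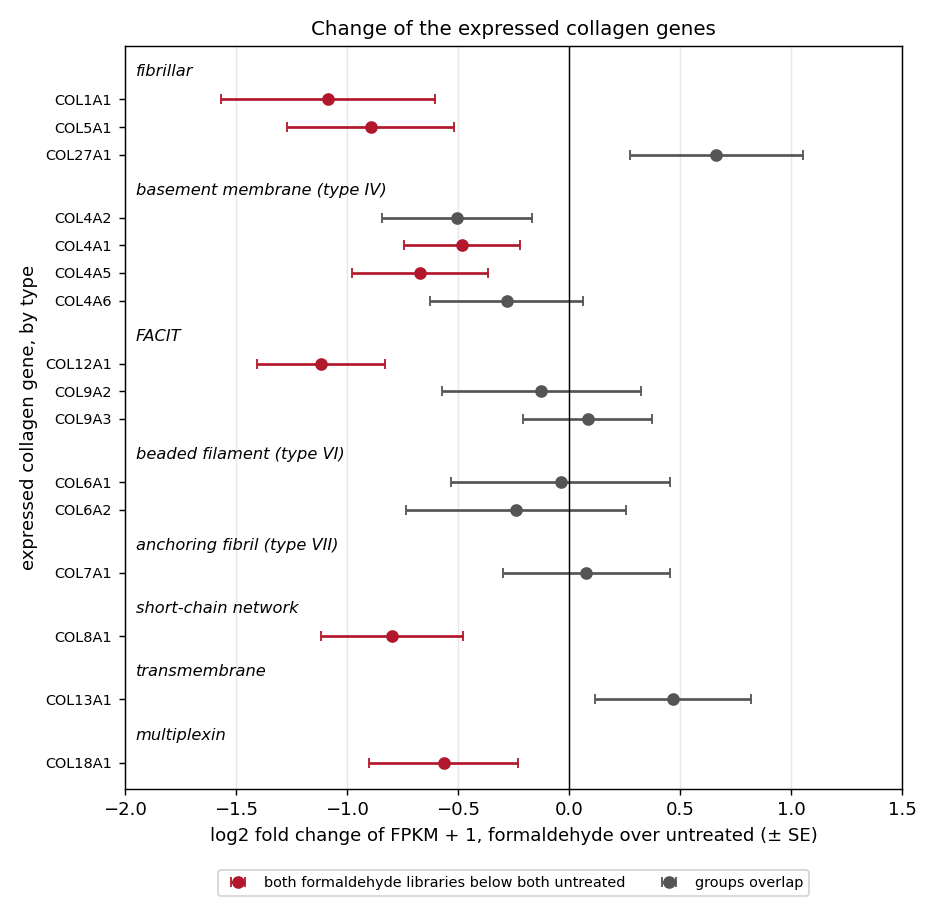
Log2 fold change of FPKM + 1, formaldehyde over untreated, with its standard error from limma, for the 16 expressed collagen genes by type. Red marks the 7 genes with both formaldehyde libraries below both untreated libraries, from -1.12 for COL12A1 to -0.48 for COL4A1; in the other 9, in grey, the groups overlap.

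Untreated replicate 2 had high values in most expressed members. It was the highest of the 4 libraries in 12 of the 16, against 22.7% of all genes tested, while COL13A1, COL27A1 and COL9A3 were highest in formaldehyde replicate 1 and COL8A1 in untreated replicate 1. It stood above untreated replicate 1 in 15 of 16. The median difference between untreated replicates 2 and 1 was 0.83 on the log2 scale over the 16 members and -0.10 over all genes tested. Collagen transcripts are long and rich in G and C. The median GC content of the 16 was 61.7%, against 49.6% for all genes tested, with 15 of 16 above it, and their median length was 5755 nt, against 2689 nt. Among all genes tested, the difference between the untreated replicates moved with GC content (Spearman rho 0.56 across genes, which are not independent replicates), with a median of -0.45 below 40% GC and 0.41 at 65% and above. The formaldehyde replicates differed in the same direction with a rho of 0.25, and the log2 fold change had a rho of 0.05. With the GC trend of each library removed, a setting chosen after seeing the data, the median of the 16 was 0.52 between the untreated replicates and -0.42 between formaldehyde and untreated. The part of GC content and library in the collagen values was not tested beyond these settings.

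**Figure D3:**
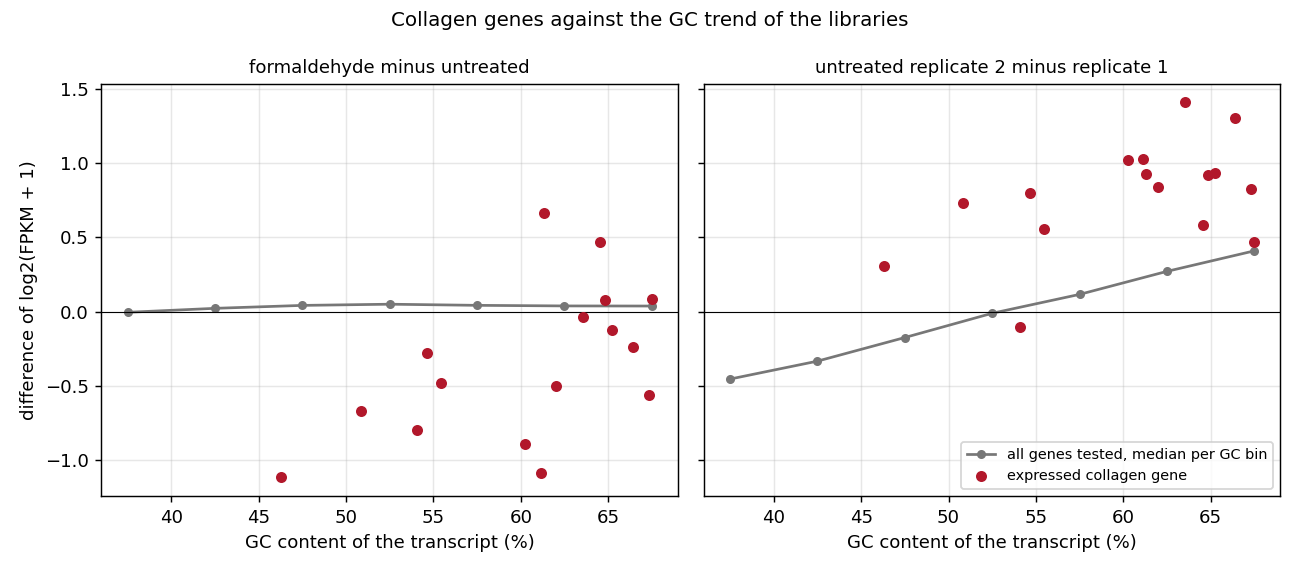
Difference of log2(FPKM + 1) against the GC content of the transcript, for formaldehyde minus untreated (left) and untreated replicate 2 minus replicate 1 (right). Red points are the 16 expressed collagen genes and the grey line is the median of all genes tested per GC bin, with open-ended first and last bins; the line stays near 0 on the left and climbs to 0.41 on the right, where 15 of 16 collagen genes lie above 0.

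Among the fibrillar collagens, 3 of 11 members were expressed, and their median log2 fold change was -0.89. COL1A1 encodes the alpha 1 chain of type I collagen, the main fibril of connective tissue (hg19, chr17:48261457-48279000, minus strand). It had 137 and 254 FPKM with formaldehyde, against 279 and 568 FPKM untreated. Both formaldehyde libraries were the lowest, with formaldehyde replicate 2 close to untreated replicate 1. The log2 fold change was -1.08 ± 0.48 (SE; limma, unadjusted p = 0.075, adjusted p = 0.9999), and 0.463 times as a ratio of means. It was the most abundant collagen in every library, at rank 644 and 308 of all gene names with formaldehyde and 265 and 125 untreated, and the values rest on 11190 and 32340 fragments with formaldehyde and 26782 and 85999 untreated, so that counting error is small beside the spread between replicates. The log2 fold change was -1.60 with untreated replicate 1 left out and -0.57 with untreated replicate 2 left out.

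COL5A1, a chain of type V collagen, which is buried inside type I fibrils and limits their width, had 8.22 and 7.23 FPKM with formaldehyde, against 10.4 and 22.0 FPKM untreated. The formaldehyde libraries lay close together below both untreated ones, which differed 2.13-fold from each other. Its log2 fold change was -0.89 ± 0.38 (limma, unadjusted p = 0.065, adjusted p = 0.9999), and -1.40 without untreated replicate 1 and -0.38 without untreated replicate 2. COL27A1, a fibrillar collagen of cartilage, stood on the other side, with 4.18 and 2.84 FPKM with formaldehyde, against 1.04 and 2.88 FPKM untreated. Here untreated replicate 1 was the low library and the groups overlapped (log2 fold change 0.66 ± 0.39, 0.20 without untreated replicate 1 and 1.13 without untreated replicate 2). The sum of the fibrillar genes was 151 and 267 FPKM with formaldehyde, against 292 and 596 FPKM untreated, most of it COL1A1.

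The partner chains of these fibrils were scarce. Type I collagen is usually made of COL1A1 chains joined by a COL1A2 chain, but COL1A2 had 0.149 and 0.545 FPKM with formaldehyde, against 0.480 and 1.34 FPKM untreated. Per 100 FPKM of COL1A1 this was 0.108 and 0.214 with formaldehyde, against 0.172 and 0.235 untreated, so COL1A2 stayed far below COL1A1 in all 4 libraries. COL5A2, the usual partner of COL5A1, gave 1.91 and 1.94 per 100 FPKM of COL5A1 with formaldehyde, against 1.71 and 0.867 untreated. COL3A1, the chain of type III collagen, was listed at 0 in 3 libraries and at 0.0214 FPKM in untreated replicate 2.

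**Figure D4:**
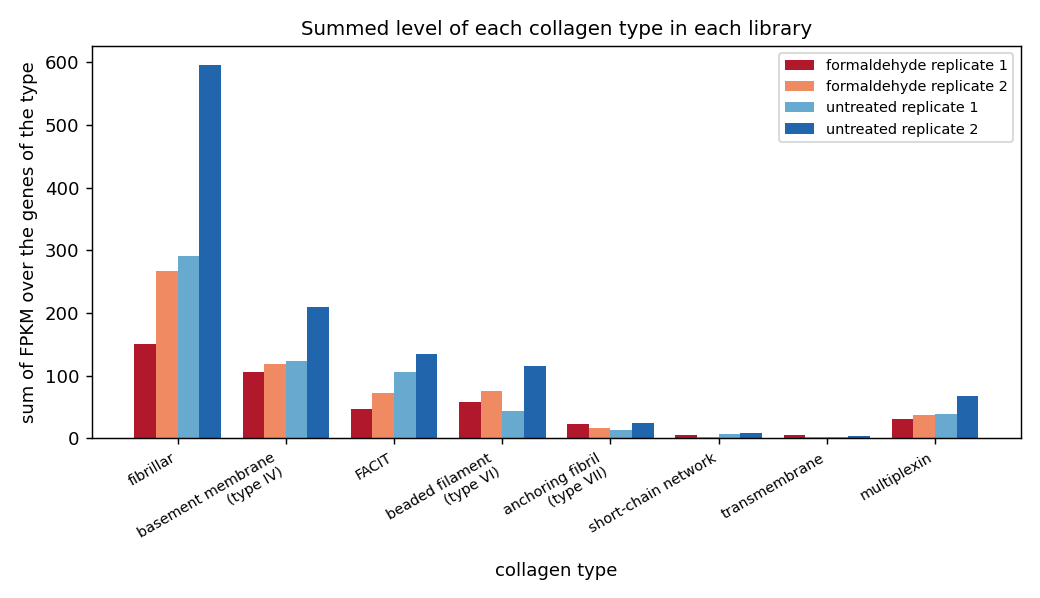
Sum of FPKM over the genes of each collagen type in each library (bars start at 0; formaldehyde replicates left of untreated). The fibrillar, type IV, FACIT, short-chain network and multiplexin sums are lower in both formaldehyde libraries than in either untreated one. Untreated replicate 1 has the lowest type VI, type VII and transmembrane sums.

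All 4 expressed type IV genes had a log2 fold change below 0, with a median of -0.49. COL4A2 and COL4A1 encode the chains of the network found in most basement membranes. COL4A2 (hg19, chr13:110959631-111165373, plus strand) had 63.0 and 74.2 FPKM with formaldehyde, against 72.6 and 130 FPKM untreated. The groups overlapped, since formaldehyde replicate 2 stood just above untreated replicate 1 (log2 fold change -0.50 ± 0.34, -0.92 without untreated replicate 1 and -0.09 without untreated replicate 2). COL4A1 (hg19, chr13:110801310-110959496, minus strand) had 28.98 and 32.7 FPKM with formaldehyde, against 35.6 and 52.8 FPKM untreated. Its groups did not overlap, and the log2 fold change was -0.48 ± 0.26 (limma, unadjusted p = 0.126, adjusted p = 0.9999). It was -0.76 with untreated replicate 1 left out and -0.20 with untreated replicate 2 left out. COL4A1 ran at 46.0 and 44.1 per 100 FPKM of COL4A2 with formaldehyde, against 49.0 and 40.5 untreated. The ratio with formaldehyde thus lay within that of the untreated libraries, for the pair whose starts enclose the stretch printed above.

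COL4A5 and COL4A6, chains of the basement membrane network of epithelia such as those of kidney, skin and airway, lay lower. COL4A5 had 11.1 and 9.11 FPKM with formaldehyde, against 12.7 and 21.7 FPKM untreated, without overlap (log2 fold change -0.67 ± 0.31; limma, unadjusted p = 0.082, adjusted p = 0.9999), and it was -1.03 with untreated replicate 1 left out and -0.31 with untreated replicate 2 left out. COL4A6 had 2.84 and 2.09 FPKM with formaldehyde, against 2.17 and 4.52 FPKM untreated, with overlap (log2 fold change -0.28 ± 0.34, and 0.12 without untreated replicate 2). COL4A6 per 100 FPKM of COL4A5 was 25.5 and 23.0 with formaldehyde, against 17.1 and 20.8 untreated. Both formaldehyde values were above both untreated ones, with no test of the ratio run. COL4A4 stood at 0.312 and 0.289 FPKM with formaldehyde, against 0.458 and 0.645 FPKM untreated, and its partner COL4A3 was silent. The type IV genes together summed to 106 and 118 FPKM with formaldehyde, against 124 and 210 FPKM untreated.

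COL12A1 had the smallest p of the family. It encodes the FACIT collagen XII, which decorates type I fibrils and bridges them to other matrix proteins (hg19, chr6:75794042-75915623, minus strand). It had 41.2 and 63.4 FPKM with formaldehyde, against 101 and 125 FPKM untreated. Each formaldehyde library lay well below either untreated one, and the spread within a group was smaller than the gap between the group means, 52.3 ± 15.7 FPKM with formaldehyde and 113 ± 16.9 FPKM untreated (SD, n = 2 each). The log2 fold change was -1.12 ± 0.29 (limma, unadjusted p = 0.0121, adjusted p = 0.9999), and it ran from -1.42 to -0.81 with any library left out. Its transcript has the lowest GC content of the 16 expressed members, 46.3%, and its log2 fold change with the GC trend removed was -1.15.

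The files list 2 COL12A1 transcripts, a long form of 11579 nt and a short form of 8087 nt that lacks part of the amino-terminal region. The long form made up 79.3% and 67.1% of the gene's FPKM with formaldehyde, against 82.6% and 55.9% untreated, so the shares overlapped, and replicate 1 had the larger share in both groups. The short form had 8.52 and 20.9 FPKM with formaldehyde, against 17.5 and 54.96 FPKM untreated. The long form had 32.7 and 42.5 FPKM with formaldehyde, against 83.3 and 69.7 FPKM untreated. The groups did not overlap in the long form and overlapped in the short form, and the difference between the forms was not tested.

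The other expressed FACIT genes were 2 chains of type IX collagen, which coats the fibrils of cartilage. COL9A2 had 3.21 and 6.61 FPKM with formaldehyde, against 3.47 and 7.52 FPKM untreated, nearly the same pair of values in each group (log2 fold change -0.12 ± 0.45). COL9A3 had 1.54 and 1.07 FPKM with formaldehyde, against 0.835 and 1.54 FPKM untreated (log2 fold change 0.09 ± 0.29), and it shares 45 bases of exon with TCFL5 on the opposite strand, whose reads cannot be told apart from its own without a stated strand setting. COL9A1, the remaining chain of type IX, was listed at 0 in all 4 libraries. COL16A1, a FACIT below the limit for testing, had 1.08 and 1.04 FPKM with formaldehyde, against 0.421 and 0.927 FPKM untreated, with both formaldehyde libraries the higher. The median log2 fold change of the 3 expressed FACIT genes was -0.12, and 0.32 without untreated replicate 2.

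The type VI genes, whose beaded filaments link cells to the surrounding matrix, included 2 expressed members, COL6A1 and COL6A2, and their groups overlapped. COL6A1 had 41.5 and 50.7 FPKM with formaldehyde, against 28.5 and 77.4 FPKM untreated. COL6A2 had 15.9 and 24.9 FPKM with formaldehyde, against 14.7 and 37.8 FPKM untreated. In both genes the 2 formaldehyde libraries lay between the 2 untreated ones (log2 fold change -0.04 ± 0.49 for COL6A1 and -0.24 ± 0.49 for COL6A2; 0.67 and 0.41 without untreated replicate 2). COL6A2 ran at 38.3 and 49.1 per 100 FPKM of COL6A1 with formaldehyde, against 51.5 and 48.8 untreated. The third chain of the usual filament, COL6A3, had 0.185 and 0.121 FPKM with formaldehyde, against 0.104 and 0.0773 FPKM untreated. Both formaldehyde libraries were the higher, but on few fragments, about 24 and 27 with formaldehyde and 17 and 11 untreated. COL6A3 stayed below 1 per 100 FPKM of COL6A1 in every library.

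COL18A1, a multiplexin of basement membranes whose end fragment is endostatin, had 30.8 and 37.5 FPKM with formaldehyde, against 37.8 and 67.9 FPKM untreated. The groups did not overlap, but formaldehyde replicate 2 and untreated replicate 1 were nearly equal (log2 fold change -0.56 ± 0.33; limma, unadjusted p = 0.153, adjusted p = 0.9999), and it was -0.98 with untreated replicate 1 left out and -0.15 with untreated replicate 2 left out. Of its 2 listed transcripts the shorter, of 5382 nt, made up 94.8% and 94.6% of the FPKM with formaldehyde, against 93.5% and 90.8% untreated. COL15A1, the other multiplexin, had 0.125 and 0.0444 FPKM with formaldehyde, against 0.176 and 0.164 FPKM untreated.

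COL8A1, a short-chain network collagen, was the only one of the 16 whose highest value was in untreated replicate 1. It had 4.23 and 2.04 FPKM with formaldehyde, against 6.17 and 5.69 FPKM untreated, with the untreated libraries close together above both others (log2 fold change -0.80 ± 0.32; limma, unadjusted p = 0.056, adjusted p = 0.9999). The log2 fold change ran from -1.19 without formaldehyde replicate 1 to -0.40 without formaldehyde replicate 2, and was -1.57 when only the highest transcript of the gene was used. Of its 2 listed transcripts the longer made up 55.2% and 99.4% of the FPKM with formaldehyde, against 0.00066% and 54.4% untreated, so its share varied widely within each group. Its partner COL8A2 had 0.232 and 0.732 FPKM with formaldehyde, against 0.618 and 2.17 FPKM untreated.

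COL7A1, the anchoring fibril collagen made by epithelial cells, had 22.0 and 15.7 FPKM with formaldehyde, against 12.5 and 24.5 FPKM untreated. The untreated libraries enclosed the formaldehyde ones (log2 fold change 0.08 ± 0.38). An exon of COL7A1 shares 36 bases with MIR711 on the same strand, which was listed at or near 0 in the formaldehyde libraries and at 123 and 173 FPKM in the untreated ones. Reads on the shared bases could come from either gene, so these values are not read as a change of MIR711. COL13A1, a membrane-spanning collagen of adhesion sites, had 4.49 and 2.47 FPKM with formaldehyde, against 1.58 and 2.86 FPKM untreated (log2 fold change 0.47 ± 0.35, from 0.14 without formaldehyde replicate 1 to 0.80 without formaldehyde replicate 2). The sign of COL13A1 turned to -0.37 when only its highest transcript was used, and the groups overlapped.

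Of the 28 members that were not tested, the remaining low ones were chains of fibrillar collagens. COL11A2 had 0.429 and 1.096 FPKM with formaldehyde, against 0.619 and 1.33 FPKM untreated, and COL11A1 had 0.240 and 0.1002 FPKM with formaldehyde, against 0.319 and 0.477 FPKM untreated. COL5A2 had 0.157 and 0.141 FPKM with formaldehyde, against 0.177 and 0.191 FPKM untreated, and COL5A3 had 0.106 and 0.181 FPKM with formaldehyde, against 0.130 and 0.297 FPKM untreated. These values rest on few fragments, as few as 9 for COL5A3 in formaldehyde replicate 1.

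The 18 silent members included COL2A1, COL3A1 and COL17A1. COL14A1, COL23A1, COL25A1, COL22A1, COL20A1, COL6A5 and COL9A1 were listed at 0 in all 4 libraries. COL2A1, the main collagen of cartilage, stood at 0.0301 and 0.0193 FPKM with formaldehyde, against 0.0127 and 0.0485 FPKM untreated. COL17A1, the membrane-spanning hemidesmosome collagen of basal epithelial cells, had 0.260 and 0.0167 FPKM with formaldehyde, about 20 and 2 fragments, and was listed at 0 in both untreated libraries. COL10A1 had 0.0456 and 0.0292 FPKM with formaldehyde, about 2 fragments in each library, and was also listed at 0 in both untreated libraries. COL24A1, COL21A1, COL26A1, COL6A6, COL28A1 and COL19A1 reached at most 0.0360 FPKM, in COL24A1 in untreated replicate 2, and COL4A3 stayed below 0.1 FPKM.

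The genes that modify and fold collagen chains had a median near that of all genes tested. Of 21 listed, 19 were tested, and limma called 0 of them in either direction (0.153% of all genes tested). At an unadjusted p under 0.05 there were 0 (2.76% of all genes tested). A log2 fold change below 0 was found in 11 of the 19 (44.9% of all genes tested), and the median was -0.05 (0.18 without untreated replicate 2). P4HA1, the catalytic subunit of prolyl 4-hydroxylase, had 28.8 and 49.1 FPKM with formaldehyde, against 53.8 and 62.6 FPKM untreated. PLOD2, which hydroxylates lysines of the chain ends, had 153 and 177 FPKM with formaldehyde, against 197 and 208 FPKM untreated. Both lay lower without overlap. CRTAP, a subunit of the prolyl 3-hydroxylase complex, had 39.6 and 33.6 FPKM with formaldehyde, against 34.9 and 28.4 FPKM untreated, and LEPREL1, a prolyl 3-hydroxylase, had 15.8 and 18.7 FPKM with formaldehyde, against 15.04 and 31.5 FPKM untreated. In these 2 genes the groups overlapped. They did not overlap in SERPINH1, the collagen chaperone HSP47, with 152 and 159 FPKM with formaldehyde, against 174 and 167 FPKM untreated. PPIB, the prolyl isomerase cyclophilin B, lay higher without overlap, with 470 and 494 FPKM with formaldehyde, against 410 and 463 FPKM untreated. The secretion genes, 13 of 14 tested, had a median of -0.03, and limma called 0 (0 at an unadjusted p under 0.05). SEC13, a subunit of the coat of transport vesicles, had 102.9 and 104 FPKM with formaldehyde, against 99.7 and 84.1 FPKM untreated, higher without overlap. CREB3L1, a transcription factor of secretory cells, had 20.1 and 29.6 FPKM with formaldehyde, against 26.5 and 27.6 FPKM untreated. MIA3, the cargo receptor that loads procollagen at the exit sites of the endoplasmic reticulum, had 8.63 and 12.7 FPKM with formaldehyde, against 9.77 and 14.5 FPKM untreated.

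Of the genes for propeptide cleavage and crosslinking, 9 of 15 were tested, and the median log2 fold change was -0.24. Limma called 0 (0.153% of all genes tested), and 1, TGM2, had an unadjusted p under 0.05 (2.76% of all genes tested). TGM2, tissue transglutaminase, which crosslinks matrix proteins, stood apart with 12.2 and 7.56 FPKM with formaldehyde, against 1.31 and 1.98 FPKM untreated. Both formaldehyde libraries were several times above both untreated ones (log2 fold change 2.02 ± 0.30; limma, unadjusted p = 0.0012, adjusted p = 0.414). PXDN, peroxidasin, which forms the sulfilimine crosslinks of type IV collagen, had 58.6 and 62.5 FPKM with formaldehyde, against 74.6 and 104 FPKM untreated, without overlap. BMP1, the proteinase that removes the carboxyl propeptide of procollagen, had 15.3 and 13.3 FPKM with formaldehyde, against 14.1 and 22.8 FPKM untreated, and the lysyl oxidase LOX had 15.1 and 7.95 FPKM with formaldehyde, against 10.2 and 13.3 FPKM untreated.

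Receptors, partners and proteases of collagen gave 0 calls by limma as well (0.153% of all genes tested). At an unadjusted p under 0.05 they had 0, 1 (SPARC) and 0 genes (2.76% of all genes tested). Among the receptors, 5 of 10 were tested, with a median of -0.31. The integrin chain ITGA1 had 0.904 and 2.09 FPKM with formaldehyde, against 2.21 and 4.54 FPKM untreated, and its partner ITGB1 had 182 and 247 FPKM with formaldehyde, against 233 and 297 FPKM untreated. The collagen receptor kinase DDR1 had 14.6 and 16.9 FPKM with formaldehyde, against 14.9 and 22.96 FPKM untreated. Of 14 fibril partners 3 were tested. SPARC, a collagen-binding protein of the matrix, had 155 and 224 FPKM with formaldehyde, against 293 and 357 FPKM untreated, without overlap (log2 fold change -0.79 ± 0.29; limma, unadjusted p = 0.0403, adjusted p = 0.9999). THBS1, thrombospondin-1, had 64.7 and 48.9 FPKM with formaldehyde, against 59.8 and 85.4 FPKM untreated, with overlap. FN1, fibronectin, had 96.9 and 25.4 FPKM with formaldehyde, against 59.9 and 46.6 FPKM untreated, a spread that covers both groups. Of the proteases that degrade collagen, 6 of 11 were tested, with a median of 0.04. CTSK, cathepsin K, had 0.700 and 1.43 FPKM with formaldehyde, against 1.93 and 2.59 FPKM untreated, lower without overlap. MMP2, a gelatinase, had 0.576 and 1.48 FPKM with formaldehyde, against 1.35 and 3.47 FPKM untreated, with overlap. MMP1, interstitial collagenase, had 18.2 and 0.339 FPKM with formaldehyde, against 0.322 and 0.067 FPKM untreated. Its high value was thus that of formaldehyde replicate 1 alone. The log2 fold change was 4.02 without formaldehyde replicate 2 and 0.17 without formaldehyde replicate 1, each with 1 formaldehyde library left.

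Markers were read beside the collagen values. Of 19 epithelial markers 10 reached a mean of 1 FPKM. The list summed to 1488 and 1290 FPKM with formaldehyde, against 811 and 886 FPKM untreated, most of it from the keratins KRT7, KRT8 and KRT18. The median log2 fold change of the 10 was 0.43, with 6 above 0 and 4 below. Limma called 0, and DSP, KRT7 and KRT18 had an unadjusted p under 0.05 (2.76% of all genes tested). KRT17 had 61.2 and 48.0 FPKM with formaldehyde, against 26.4 and 178 FPKM untreated, with overlap. KRT14 also overlapped (log2 fold change -0.44), and KRT5, TP63 and GRHL2 were listed at 0 in all 4 libraries. Of the 10 tested, 5 lay higher without overlap and 1, OCLN, lower without overlap (log2 fold change -0.21). CDH1, below the limit for testing, had 0.061 and 0.117 FPKM with formaldehyde, against 0.168 and 0.631 FPKM untreated. KRT19, also not tested, was lower without overlap too, while the untested KRT15 and ESRP1 were higher without overlap. Of 14 fibroblast markers 6 reached 1 FPKM, with sums of 1210 and 998 FPKM with formaldehyde, against 971 and 916 FPKM untreated, most of it VIM. The median log2 fold change of these 6 was -0.20, with 4 below 0 (44.9% of all genes tested). Limma called 0 of them (0.153% of all genes tested), with 0 at an unadjusted p under 0.05. THY1 had 139 and 165 FPKM with formaldehyde, against 144 and 203 FPKM untreated. PDGFRB had 7.40 and 22.2 FPKM with formaldehyde, against 21.8 and 29.97 FPKM untreated. FBLN1 had 9.67 and 19.3 FPKM with formaldehyde, against 14.05 and 32.6 FPKM untreated. In these 3 genes the groups overlapped, and untreated replicate 2 was the highest library. VIM went the other way, with 1043 and 786 FPKM with formaldehyde, against 782 and 642 FPKM untreated, higher without overlap. TWIST2 also had a log2 fold change above 0 (0.30), with overlap. The fibroblast markers DCN, PDGFRA and TCF21 were at or near 0 in every library. Of 10 endothelial markers 0 reached 1 FPKM, of 12 leukocyte markers 3 did, with PTPRC near 0, of 7 chondrocyte markers 2 did, with ACAN near 0, and of 7 smooth muscle markers 4 did. Limma called 0 of those tested, and no endothelial marker was tested. The leukocyte markers CD68 and CORO1A, the chondrocyte marker SOX9 and the smooth muscle marker SMTN lay higher with formaldehyde at an unadjusted p under 0.05. A log2 fold change below 0 was found in 1 of the 3 leukocyte, 1 of the 2 chondrocyte and 2 of the 4 smooth muscle markers. The part of these lists in the collagen values was not tested.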

How the data were processed

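Total RNA of BEAS-2B cells was sequenced on the Illumina platform, per the labels. Cufflinks 2.0.2, STAR 2.5.2, FastQC 0.10.0 and the build hg19 are named in the submitters' processing notes; the strand setting and the handling of multi-mapped reads were not given in the sources used here. Every deposited file holds the Cufflinks FPKM of 40255 transcripts of 1 library in its attribute column, together with other attributes such as bounds and coverage, per the file headers and attributes; 894 transcripts with no gene name were left out and the rest summed per gene name. Mapped fragments were recovered from the ratio of deposited coverage to FPKM and from the bounds; intervals cover counting error only and no count test was run.

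Genes with a mean of at least 1 FPKM (12407) entered limma 3.58.1 (R 4.3.3, lmFit, eBayes with a trend) as log2(FPKM + 1). The contrast was formaldehyde minus untreated with no covariate, two-sided, Benjamini-Hochberg adjusted, threshold 0.05. The test was checked on simulated data with changes larger than those of any collagen gene. That check does not show the power to find changes of the size seen in the collagen genes. The members and lists were chosen with earlier results of these data known. Every collagen gene is accounted for, expressed ones with each library's value; full statistics go to those past the threshold, those whose groups do not overlap and the 6 of largest absolute t, and the genes of largest absolute t are named per pathway list, 5 for chain modification and folding and 3 for each other list. PPIB, LOX and the marker genes were named after their values were seen. GC content came from GENCODE transcripts matched by accession or symbol, available for 98.2% of genes tested. Promoter letters are from the RefSeq table (GRCh38.p14), coordinates of genes from the files (hg19). Alternatives covered the pseudocount, the filter, scaling, transcript choice, short genes, the eBayes form, the replicate block, GC content and each library left out. Figures were drawn with matplotlib 3.10.9.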

Additional observations from a re-analysis of the deposited data

How the results depend on the processing

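Limma called 0 collagen genes under the reported setting and all 17 alternatives, with the lowest adjusted p of a collagen gene, 0.287, reached with the GC trend removed and the replicate number as a block. The number of all genes called was 19; it was 1 among genes of at least 300 nt, 0 with no filter (652 genes had an unadjusted p under 0.05), 29 with the replicate block and 31 to 55 with a library left out. With a filter of a mean of 5 FPKM the collagen median was -0.50 and the FACIT median -0.62. With a library left out, the medians ran from -0.75 to 0.0165 for the expressed collagen genes, -1.40 to -0.38 for fibrillar, -0.84 to -0.14 for type IV, -0.59 to 0.32 for FACIT, -0.74 to 0.48 for the other types and -0.27 to 0.18 for the chain modification and folding genes; the log2 ratio of summed collagen FPKM ran from -1.19 to -0.30. The upper end of each of these 7 ranges came without untreated replicate 2, and the cause was not tested. With only the highest transcript of each gene, COL4A6 had 0.13, COL13A1 -0.37 and FN1 0.0488. With a library left out the sign turned in COL6A1 (-0.74 to 0.67), COL6A2 (-0.89 to 0.41), COL7A1 (-0.38 to 0.54), COL9A2 (-0.59 to 0.34), COL9A3 (-0.15 to 0.32), COL4A6 (-0.68 to 0.12), BMP1 (-0.64 to 0.0168), CREB3L1 (-0.41 to 0.12), DDR1 (-0.52 to 0.0716), FN1 (-1.03 to 0.86), LEPREL1 (-0.84 to 0.18), LOX (-0.50 to 0.35), THY1 (-0.42 to 0.0765) and MIA3 (-0.43 to 0.0919). MMP1 ran from 0.17 without formaldehyde replicate 1 to 4.02 without formaldehyde replicate 2, each with 1 formaldehyde library left. PDGFRB ran from -1.66 to -0.20 and FBLN1 from -1.19 to -0.0322.

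The replicate numbers were not shown to pair the samples: with 2 pairs, the deviations of same-numbered libraries had a correlation of 0.25 across genes. With the replicate block, 5 of the 16 expressed collagen genes had an unadjusted p under 0.05 (7.37% of all genes tested, 915 of 12407, in the same setting) and the lowest adjusted p among them was 0.327. The count was 4 of 16 with the GC trend removed (3.69% of genes in that setting) and 7 of 16 with the replicate block as well (9.50%). It was 3 with robust eBayes (3.03%) and 2 with FPKM-sum scaling (2.51%). It stayed at 1 with median-ratio or quantile scaling, a pseudocount of 0.1 or only the highest transcript.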
